A study of Homo sapiens with 2 samples.

Results

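Antisense RNAs are transcripts read from the strand opposite a protein-coding gene, so that part of their sequence is the reverse complement of that gene. The 150 antisense RNAs described here were chosen from 58302 rows of a gene count table by 2 criteria: a gene type of antisense and 100 or more reads in each of the 2 libraries. PRMT5-AS1 and host genes of small nucleolar RNAs named SNHG were left out. The table held 5448 antisense rows, of which 2887 had any read and 153 reached 100 reads in both libraries, 3 of them SNHG genes. Each of the 150 was set beside its sense partner, the protein-coding row on the opposite strand that its locus overlaps most. Reads chose the members, so their levels are a description. The behaviour of the partners was not used in the choice. The ratio between the libraries was not a criterion, but the choice was not independent of it. A row with a large ratio can fall below the minimum in its lower library. The antisense row AC020978.5 was left out in this way, with 67 reads in the vector control and 362 after PRMT5 overexpression, 3.87-fold higher.

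Polyadenylated RNA came from Tu212, an epithelial-derived cell line that stands in for squamous carcinoma of the head and neck. One culture had been treated for 48 h with the plasmid pEZ-PRMT5, which encodes the arginine methyltransferase PRMT5, and the other with the empty pEZ-vector. There was 1 library per group, with 14119997 reads assigned to genes in the vector control and 19908258 after PRMT5 overexpression. No replicate check of any difference is therefore possible, no test was run, and the values describe these libraries. Fewer cells of a kind and less RNA per cell cannot be told apart in such bulk RNA.

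Natural antisense transcripts can act on their neighbour by pairing with its RNA, by transcription through its locus or by recruiting chromatin enzymes, and many have no known effect. They occur in typical layouts: head to head, where the 5′ ends overlap and the starts often lie close together; tail to tail, where their ends meet; or one gene lying inside the other. PRMT5 places symmetric dimethyl marks on arginines of histones and of the Sm proteins of the splicing machinery, and long non-coding RNAs are among the transcripts that depend on splicing and nuclear decay for their level.

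PRMT5 itself, the overexpressed gene, had 2068 reads in the vector control and 5770 after overexpression, a log2 ratio of 1.01 (95% counting interval 0.94 to 1.09). Throughout, a log2 ratio above 0 means a higher level with PRMT5 overexpressed, computed on counts scaled to library size, and bracketed ranges are 95% counting intervals. All 10 epithelial markers fixed for this description had 100 or more reads in both libraries. They were KRT5, KRT14, KRT6A, KRT17, TP63, SFN, CDH1, EPCAM, KRT8 and KRT18, not all of which are particular to squamous epithelium. None of 6 fibroblast, 5 leukocyte and 4 endothelial markers did. Their highest counts were 29, 12 and 69 reads.

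The 150 antisense RNAs differed little between the libraries. Their median log2 ratio was -0.02, with quartiles at -0.16 and 0.13, beside a median of -0.0089 over all 11505 rows with 100 or more reads in both libraries. No member was 2-fold higher or lower, where 0.426% of all such rows were 2-fold higher and 0.582% 2-fold lower. The minimum of 100 reads in both libraries can remove large ratios from the members and from the rows compared with them. At 1.5-fold, 0 members were higher and 2 were lower (1.33%), beside 1.69% and 1.92% of all rows. The ratio was above 0 in 70 members and below 0 in 80, or 46.7% and 53.3%, and the split over all rows was 48.0% to 52.0%. The counting interval lay wholly above 0 in 20 members and wholly below 0 in 20, which is 13.3% each, beside 17.7% and 18.7% of all rows. Over the 6773 rows with 100 to 1000 reads in both libraries, which are closer to the members in depth, it was 11.1% and 17.0%. Of these 6773 rows, 0.325% were 2-fold higher and 0.561% lower, and 1.55% were 1.5-fold higher and 2.35% lower. Members were shallower than the table at large, since their median interval width was 0.58 on the log2 scale and that of all rows 0.32. For comparison, the 130 rows typed as long intergenic non-coding RNA with the same read minimum had a median of -0.02, and 5 of them (3.85%) were 1.5-fold higher and 1 (0.769%) lower.

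**Figure D1:**
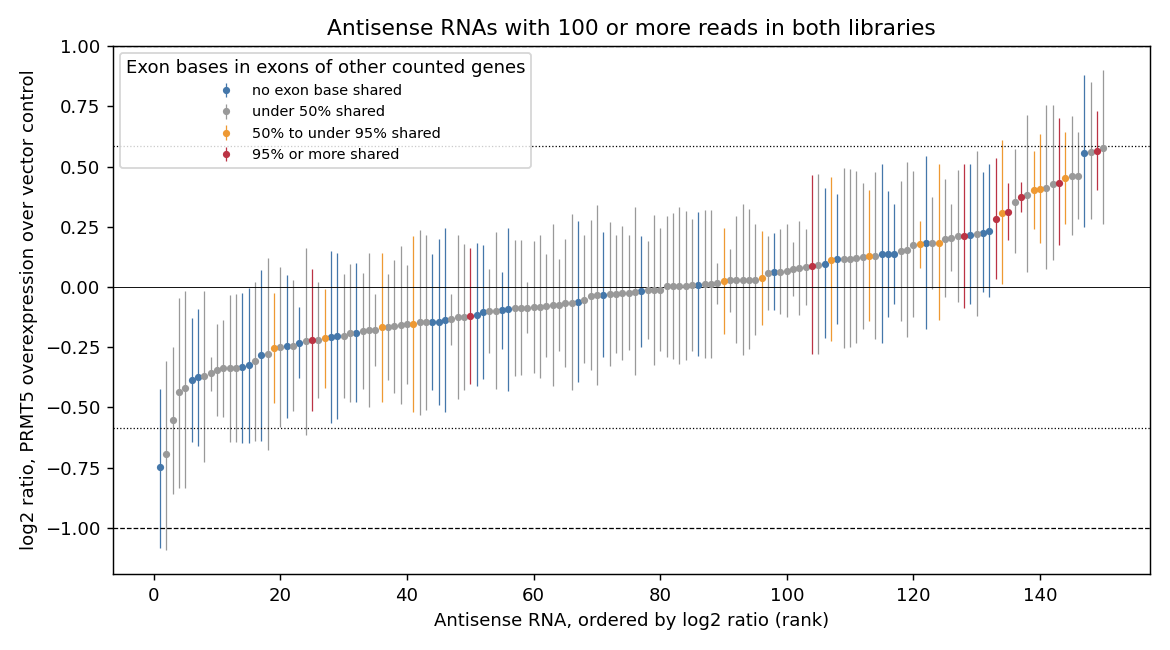
Each point is 1 antisense RNA, placed by the rank of its log2 ratio (x axis) and by the log2 ratio of PRMT5 overexpression over vector control (y axis), with bars for the 95% counting interval and colours for the share of its exon bases that lie in exons of other counted genes. Dotted lines mark 1.5-fold and dashed lines 2-fold; the ratios run from -0.75 to 0.58, no point passes 2-fold, and the RNAs with 95% or more of their exon bases shared sit mostly on the right.

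As a group the members held 45939 reads in the vector control and 64808 after PRMT5 overexpression, which was 0.325% and 0.326% of all reads. Reads per member ran from 101 to 3412 in the vector control (median 179) and from 103 to 6114 after overexpression (median 244.5). Only 7 members had 1000 or more reads in both libraries and 123 had fewer than 500 in both. Of the names, 80 were clone names, 61 followed the pattern of a host gene with "-AS" and 9 were other symbols. The locus overlapped the gene in the name for 57 of the 61. The other 4 were OTUD6B-AS1, DNAJC9-AS1, UBL7-AS1 and UBA6-AS1, which lie beside their namesake on the opposite strand, from 7 bases (OTUD6B-AS1) to 3929 bases (DNAJC9-AS1) away. The median merged exon length was 2456.5 bases, and 35 members had a single exon block.

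The read minimum cut through a continuous range of levels. Just inside it stood AC012368.1 with 101 and 104 reads, NR2F1-AS1 with 101 and 115, AC016876.1 with 102 and 153, and MHENCR with 102 and 155, vector control first. Just outside were AC004130.1 with 98 and 118 reads, AC005540.1 with 98 and 134, AP001107.2 with 97 and 153, and AC004846.1 with 96 and 115. Log2 ratios ran from -0.42 to 0.14 among the first 4 and from -0.20 to 0.19 among the second 4.

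The 8 members with the most reads held 31.7% of all member reads in the vector control. The most abundant was AC006064.4 (ENSG00000269968, chr12:6537794-6538370, minus strand, GRCh38), which lies inside GAPDH, the gene of a glycolytic enzyme. It had 3412 reads in the vector control and 6114 after PRMT5 overexpression, a log2 ratio of 0.37 (0.31 to 0.44), or 1.3-fold higher. GAPDH had 108043 and 141228 reads, a ratio of -0.08 (-0.09 to -0.07), so the antisense row was higher and the sense row slightly lower. As RPKM, that is reads per merged exon length and library size, AC006064.4 stood at 567 and 735 and GAPDH at 2542 and 2403.

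CCDC144NL-AS1 (chr17:20868433-21002276, plus strand) was second, with 3136 reads in the vector control and 3380 after overexpression, a log2 ratio of -0.36 (-0.43 to -0.29). Its partner CCDC144NL, which encodes a coiled-coil protein, had 288 and 261 reads and a ratio of -0.61 (-0.86 to -0.36). Both rows of this pair, whose starts lie 27707 bases apart, were lower after overexpression, and the antisense row held 91.6% and 92.8% of the pair's reads. CCDC144NL-AS1 shares no exon base with CCDC144NL but 394 with USP22, a deubiquitinase gene with 4354 and 6247 reads and a ratio of 0.05. With USP22 added to the pair, the antisense share was 40.3% and 34.2%, so its direction turned.

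AFAP1-AS1, a cancer-associated antisense RNA that meets the actin filament gene AFAP1 tail to tail, had 1955 and 2731 reads, a log2 ratio of 0.01 (-0.07 to 0.10). AFAP1 had 645 and 935 reads and a ratio of 0.07 (-0.08 to 0.22), so neither row of the pair was set apart from 0. GABPB1-AS1 had 1308 and 1704 reads, a ratio of -0.09 (-0.19 to 0.02), and GABPB1, which encodes a subunit of the GA-binding transcription factor, had 599 and 834 and a ratio of 0.01. AP002490.1 inside NUMA1, the gene of a spindle pole protein, had 1394 and 2180 reads, a ratio of 0.18 (0.08 to 0.28). NUMA1 stood at 13050 and 17659 reads, a ratio of -0.03.

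ZFAS1, which hosts small nucleolar RNAs in its introns, had 1330 and 1675 reads, a log2 ratio of -0.13 (-0.24 to -0.03). It starts head to head with ZNFX1, a helicase gene, which had 878 and 1338 reads and a ratio of 0.14. FGD5-AS1 had 1109 and 1614 reads, a ratio of 0.07 (-0.04 to 0.19), beside 0 reads in both libraries for FGD5 and 711 and 1016 for NR2C2, a nuclear receptor gene that it also overlaps. At the FGD5 locus the antisense RNA was well read while the gene it overlaps most had no reads. DDIT4-AS1, last of the 8, had 935 and 1605 reads, a ratio of 0.31 (0.19 to 0.43), and is taken up again with the other RNAs that lie in exons of their partner.

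The lowest ratio belonged to UBL7-AS1 (chr15:74461265-74481302, plus strand), with 173 reads in the vector control and 142 after overexpression. Its log2 ratio was -0.75 (-1.08 to -0.42), which is 1.68-fold lower. It overlaps no protein-coding row. UBL7, a ubiquitin-like protein gene that starts 83 bases away on the other strand, had 681 and 786 reads and a ratio of -0.26 (-0.41 to -0.11), lower as well but by less.

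AC090673.1 (chr12:65851340-65882167, minus strand) was the other member past 1.5-fold, with 121 and 103 reads and a log2 ratio of -0.69 (-1.09 to -0.31), 1.62-fold lower. It lies inside HMGA2, an architectural chromatin gene often re-expressed in carcinomas, which had 3791 and 4933 reads and a ratio of -0.09 (-0.15 to -0.03). The antisense share of the pair's reads went from 3.09% to 2.05%. Next, short of 1.5-fold, was AC087741.1 with 187 and 176 reads and a ratio of -0.55 (-0.86 to -0.25). Its partner CARD14, a keratinocyte signalling scaffold gene, had only 32 and 53 reads.

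At the upper end 4 members, all short of 1.5-fold, lay between 0.56 and 0.58. TMPO-AS1 (chr12:98512973-98516422, minus strand) had 123 reads in the vector control and 254 after overexpression, a log2 ratio of 0.58 (0.26 to 0.90). It starts head to head with TMPO, which encodes lamina-associated polypeptides and had 1688 and 2174 reads, a ratio of -0.10 (-0.19 to -0.01). AC093484.3 inside UBB had 458 and 938 reads and a ratio of 0.57 (0.40 to 0.73), the tightest interval of the 4. ASB16-AS1 had 155 and 317 reads, a ratio of 0.56 (0.28 to 0.85), beside 16 and 31 for ASB16, a ubiquitin ligase adaptor gene. AC012640.2 had 127 and 259 reads, a ratio of 0.56 (0.25 to 0.88), and overlaps no protein-coding row. Its nearest neighbour MARCH6, a ubiquitin ligase gene of the endoplasmic reticulum 102 bases away, had 5241 and 7534 reads and a ratio of 0.06.

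A main sense partner was found for 135 members, and 15 overlapped no protein-coding row. The 135 members shared 134 distinct partners, because DLGAP1-AS1 and DLGAP1-AS2 both lie in DLGAP1, a postsynaptic scaffold gene with 11 and 24 reads. In 125 pairs the partner was counted, meaning that it reached 10 reads in either library, and in 102 it had 100 or more in both. The partner had more reads than the antisense row in both libraries in 87 pairs and fewer in both in 35. The median log2 ratio of the 102 partners was -0.04, beside -0.0096 over all 10659 protein-coding rows with that many reads. Of these 102, 2 were 1.5-fold higher and 4 lower, beside 1.46% and 1.98% of all such rows. None was 2-fold higher (0.403% of rows) and 2 were 2-fold lower (0.629%). Among all 124 distinct counted partners, shallow ones included, 7 were 1.5-fold higher and 7 lower, beside 4.23% and 4.46% of protein-coding rows that reached 10 reads in either library. At 2-fold 2 were higher and 2 lower, beside 1.76% and 1.62%.

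Across the 102 pairs the antisense and partner ratios were close to unrelated (Pearson r 0.07, Spearman correlation 0.07), as a description over pairs that share both libraries and their depth. Among the 85 pairs that share exon bases the values were -0.005 and -0.02, and among the 17 that share none they were 0.45 and 0.44. Of the 125 pairs, 65 had ratios of the same sign.

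**Figure D2:**
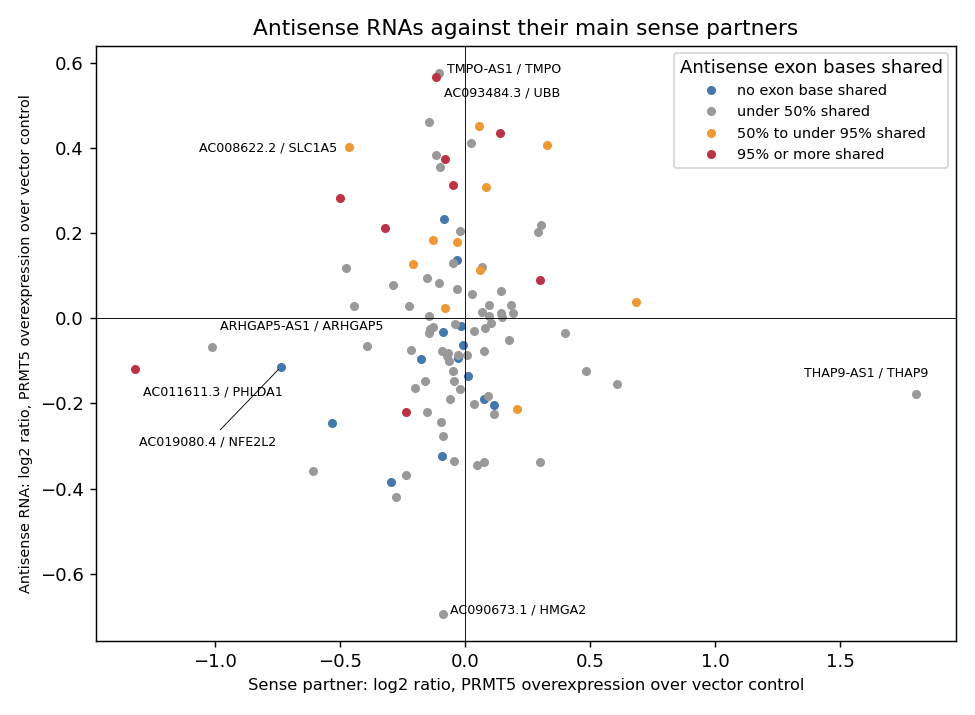
Each point is 1 pair, with the log2 ratio of the sense partner on the x axis and that of the antisense RNA on the y axis, for the 102 pairs whose partner had 100 or more reads in both libraries and for THAP9-AS1 with THAP9, whose partner had 29 and 143 reads. Colours give the share of antisense exon bases that lie in exons of counted genes. Partners spread from -1.32 (PHLDA1) to 1.81 (THAP9) while the antisense RNAs stay between -0.69 and 0.58, and the points follow no line.

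Several of the partners that differed most stood beside antisense RNAs that differed less. CCDC144NL and CCDC144NL-AS1, given above, were both lower with intervals wholly below 0. Only 2 of the 150 members passed 1.5-fold, so a partner picked for its large ratio was likely to differ more than its antisense RNA. PHLDA1, a pleckstrin homology-like gene induced by growth factor signalling, had 5495 reads in the vector control and 3049 after overexpression, a log2 ratio of -1.32 (-1.38 to -1.25), or 2.49-fold lower. Its antisense RNA AC011611.3 (chr12:76030494-76031378, plus strand) had 188 and 239 reads, a ratio of -0.12 (-0.40 to 0.16). The antisense share of the pair went from 3.31% to 7.27%. ARHGAP5, a gene of a GTPase-activating protein, had 4520 and 3102 reads, a ratio of -1.01 (-1.08 to -0.94). ARHGAP5-AS1, which starts head to head with it 679 bases away, had 210 and 277 reads, a ratio of -0.07 (-0.33 to 0.20). In both pairs the sense gene was at least 2-fold lower while the interval of the antisense RNA included 0.

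NFE2L2, the gene of the oxidative stress factor NRF2, had 4941 and 4104 reads, a log2 ratio of -0.73 (-0.80 to -0.68). AC019080.4, which lies inside this locus without sharing an exon base with NFE2L2, had 170 and 217 reads and a ratio of -0.11 (-0.41 to 0.18). SLC1A5, a glutamine transporter gene, had 11496 and 11541 reads, a ratio of -0.46 (-0.50 to -0.42). Its head to head antisense RNA AC008622.2 (chr19:46787815-46789043, plus strand) went the other way, with 490 and 895 reads and a ratio of 0.40 (0.24 to 0.56), so its share of the pair was 4.09% and then 7.20%.

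The largest partner ratio was that of THAP9, a gene derived from a DNA transposase, with 29 reads in the vector control and 143 after overexpression, a log2 ratio of 1.81 (1.25 to 2.46), or 3.49-fold higher. THAP9-AS1 (chr4:82893009-82900960, minus strand), which starts 276 bases from the THAP9 start in a head to head layout, had 662 and 809 reads, a ratio of -0.18 (-0.33 to -0.03). The antisense RNA thus held 95.8% of the pair's reads in the vector control and 85.0% after overexpression. A like case without overlap was AC009113.1 (chr16:89215211-89217653, minus strand), with 168 and 184 reads and a ratio of -0.33 (-0.65 to -0.03). Its neighbour ZNF778, a zinc finger gene that starts 50 bases away on the other strand, had 36 and 232 reads and a ratio of 2.19 (1.71 to 2.77). ZNF778 was singled out after its value was seen.

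The bases before these 2 sense starts lie inside or beside the antisense gene, which is why they are shown here, 5′ to 3′ on the plus strand from RefSeq (GRCh38.p14). The THAP9 window is chr4:82900485-82900683, which ends at the base before the THAP9 row and lies within THAP9-AS1. The ZNF778 window is chr16:89217453-89217702, of which all but the last bases lie within AC009113.1. Capitals mark CCAAT on either strand, where ATTGG is its reverse complement.
THAP9: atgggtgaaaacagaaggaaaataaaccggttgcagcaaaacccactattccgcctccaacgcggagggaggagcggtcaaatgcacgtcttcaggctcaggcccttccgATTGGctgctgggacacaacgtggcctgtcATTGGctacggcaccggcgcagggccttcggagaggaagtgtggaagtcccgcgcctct
ZNF778: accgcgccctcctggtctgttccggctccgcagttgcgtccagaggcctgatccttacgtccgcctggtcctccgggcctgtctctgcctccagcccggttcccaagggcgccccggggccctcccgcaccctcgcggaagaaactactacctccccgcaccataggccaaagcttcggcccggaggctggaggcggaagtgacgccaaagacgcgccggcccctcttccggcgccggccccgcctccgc
Besides CCAAT, the TATA element TATAAA was searched on both strands. So were the GC box, GGGCGG, and the E-box, CACGTG. The THAP9 window held CCAAT 2 times and none of the others. The ZNF778 window held none of these 4 motifs, and its GC content was 71.6% against 58.8% for THAP9. Of the 150 antisense RNAs, 54 had a start in the same RefSeq table. In the 250 bases before it, CCAAT was found for 44.4%, GGGCGG for 57.4%, CACGTG for 7.41% and TATAAA for 3.7%. Over all 27305 promoters of the table these were 33.0%, 42.3%, 6.49% and 11.1%, with both strands searched, and the median GC content was 66.0% for the 54 and 58.0% for all. For 40 partners of head to head members, CCAAT was found for 40.0% and GGGCGG for 70.0%, with a median GC content of 62.0%. For the 19 head to head antisense RNAs among the 54, these were 36.8%, 42.1% and 67.2%. A match is a run of letters and not a mapped binding site.

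The remaining partners past 1.5-fold were mostly shallow. TRIM39, a ubiquitin ligase gene in the major histocompatibility region, had 188 and 397 reads, a log2 ratio of 0.61 (0.36 to 0.87), and HCG18, head to head with it, had 249 and 309, a ratio of -0.16 (-0.40 to 0.09). The antisense share of this pair went from 57.0% to 43.8%, the largest drop in share of the 125 pairs, in percentage points. Higher partners with fewer than 100 reads in at least 1 library were AC073508.2 with 7 and 28, SLC35G2 with 21 and 50, TTN, the titin gene, with 17 and 39, and DLGAP1. The lower ones were MMP25, a membrane metalloproteinase gene, with 24 and 18 reads, GJD3, a connexin gene, with 39 and 34, and ALOX12B, an epidermal lipoxygenase gene, with 59 and 53. The intervals of TTN, DLGAP1, MMP25 and GJD3 included 0.

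AC027644.3 is a case where the main partner is not the gene whose exons it shares. It had 368 and 522 reads, a log2 ratio of 0.04 (-0.16 to 0.23). Its main partner AC027644.4, a clone-named protein-coding row with which it shares no exon base, had 717 and 1593 reads and a ratio of 0.68 (0.56 to 0.81). RABGEF1, a Rab5 exchange factor gene on the same stretch with which it shares 411 exon bases, had 704 and 377 reads and a ratio of -1.37. The counts of the 2 sense rows thus differed in opposite directions around an antisense row that stayed near 0. Both sense rows lie on the same strand and overlap each other. How the counting divided reads between them was not tested, so neither ratio can be read as that of 1 gene alone.

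The layout of the pairs went with little difference in ratio. The 49 head to head members, whose starts lie up to 36455 bases from those of their partners (CYP1B1-AS1), had a median log2 ratio of -0.03, the 34 tail to tail members 0.01, the 38 that lie inside their partner -0.10 and the 14 that contain their partner -0.04. The 15 with no overlapping protein-coding row had a median of 0.06. The counting interval was wholly above 0 in 6, 3, 7, 3 and 1 of these and wholly below in 5, 4, 7, 1 and 3.

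What did go with the ratio was how much of the antisense RNA lies in exons of other genes, with classes set after the values were seen. Shared bases were counted against every gene that reached 10 reads in either library. The 33 members with no shared base had a median log2 ratio of -0.10, with 12 above 0 and 21 below, and the 94 with less than 50% shared had a median of -0.03, with 41 above and 53 below. Among the 14 with 50% to under 95% shared the median was 0.12 and 10 were above 0. For the 9 with 95% or more it was 0.28, 7 were above 0, and 5 intervals lay wholly above 0 and none below. The classes also differed in length, with median exon lengths of 1901, 3289.5, 1566 and 569 bases in the same order. Whether length went with the ratio was not tested. Over the 150 members, Spearman's correlation between the ratio and the percentage shared was 0.26. Over the 102 pairs with a well-read partner, the Spearman correlation between the antisense ratio and the partner's reads per antisense read in the vector control was 0.29; both measures hold the antisense count of that library. The part of the partners' reads in the antisense ratios was not tested. Whether strand was kept in library preparation and counting is not stated in the labels used here, and without strand the reads of a gene and its antisense partner cannot be told apart.

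**Figure D3:**
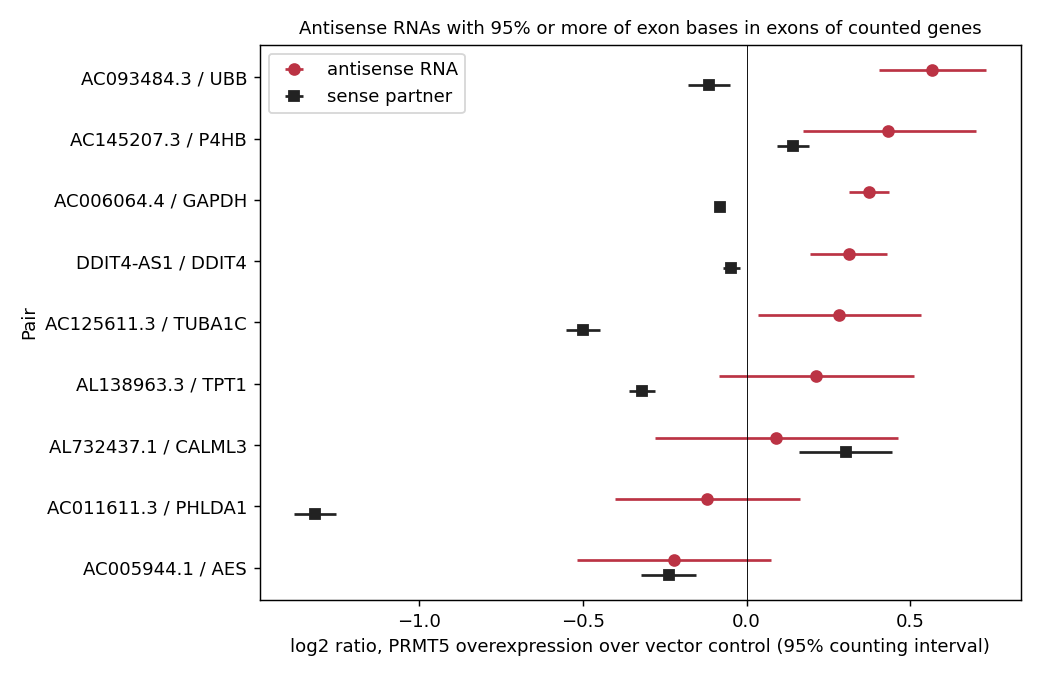
Log2 ratios (x axis) of PRMT5 overexpression over vector control for the 9 antisense RNAs with 95% or more of their exon bases in exons of counted genes (circles) and for their sense partners (squares), with 95% counting intervals as bars. In 8 of the 9 pairs the antisense point lies to the right of its partner, CALML3 being the exception.

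The 9 lie inside genes with more reads than they have. The partner's ratio had the opposite sign in 5 of the 9 pairs and the same sign in 4, those of P4HB, CALML3, PHLDA1 and AES. AC093484.3 (chr17:16382152-16382669, minus strand) lies in UBB, one of the polyubiquitin genes, which had 3550 and 4536 reads. The log2 ratio of UBB was -0.11 (-0.18 to -0.05) against 0.57 for the antisense RNA. Its share of the pair went from 11.4% (10.5 to 12.5) to 17.1% (16.1 to 18.2). AC145207.3 in P4HB, the gene of a protein disulfide isomerase, had 184 and 344 reads, a ratio of 0.43 (0.17 to 0.70), and P4HB had 5711 and 8713, a ratio of 0.14 (0.09 to 0.19). These were the 2 highest of the 9.

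DDIT4-AS1 (chr10:72274915-72275980, minus strand) had a log2 ratio of 0.31, as given above. DDIT4, a stress-induced inhibitor of the growth kinase complex mTORC1, had 22063 and 29537 reads, a ratio of -0.05 (-0.07 to -0.02), and the antisense share went from 4.07% to 5.15%. AC125611.3 in TUBA1C, an alpha-tubulin gene, had 214 and 360 reads, a ratio of 0.28 (0.03 to 0.53), whereas TUBA1C had 6035 and 5901, a ratio of -0.50 (-0.55 to -0.45). AL138963.3 in TPT1, the gene of the translationally controlled tumour protein, had 153 and 245 reads, a ratio of 0.21 (-0.09 to 0.51), and TPT1 had 9798 and 10851, a ratio of -0.32 (-0.36 to -0.28). In these pairs the antisense RNA was the higher of the 2 ratios, and the TPT1 one has an interval that includes 0.

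AL732437.1 in CALML3, an epithelial calmodulin-like gene, had 104 and 153 reads, a log2 ratio of 0.09 (-0.28 to 0.46), and CALML3 had 645 and 1100, a ratio of 0.30 (0.16 to 0.45). AC005944.1 in AES, a corepressor gene of the Groucho family, had 178 and 211 reads, a ratio of -0.22 (-0.52 to 0.07), and AES had 2126 and 2494, a ratio of -0.24 (-0.32 to -0.15). With AC011611.3 in PHLDA1, these are the members of the 9 with the lowest ratios. AC011611.3 stood at 23.2 and 21.3 RPKM, and PHLDA1 at 47.8 and 19.2. The merged exon lengths behind these values were 569 bases for AC011611.3 and 8069 over all PHLDA1 transcripts. Since 97.2% of the exon bases of AC011611.3 lie in PHLDA1 exons, the 2 levels cannot be separated without strand.

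The overlap can be read from the sequences. The first 60 coding bases of 1 annotated PHLDA1 transcript (ENST00000602540) lie whole in an exon of AC011611.3, at chr12:76031259-76031318 (GRCh38). Coding sequence of another PHLDA1 transcript reaches further upstream, so that these bases are internal to it. Likewise, the last 60 coding bases of DDIT4 lie in an exon of DDIT4-AS1, at chr10:72275129-72275188. The antisense line is the reverse complement of the sense line, both 5′ to 3′. Capitals mark the start codon of that PHLDA1 transcript and the stop codon of DDIT4.
AC011611.3: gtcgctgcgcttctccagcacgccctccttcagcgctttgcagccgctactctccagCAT
PHLDA1: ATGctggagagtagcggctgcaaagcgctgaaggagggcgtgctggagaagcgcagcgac
DDIT4-AS1: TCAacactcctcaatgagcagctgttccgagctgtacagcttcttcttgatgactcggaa
DDIT4: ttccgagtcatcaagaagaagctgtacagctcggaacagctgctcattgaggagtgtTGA
A read from such a stretch matches both rows and is told apart only by strand. In all, 110 members shared exon bases with their main partner and 71 shared coding bases.

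Splice junctions are the part of these RNAs that the partner's own transcripts do not contain. Among the 117 members with an annotated intron, 0 shared an intron with the same ends as one of an overlapping protein-coding gene on the other strand. AC093484.3 removes 57 bases that all lie in the coding exon of UBB (chr17:16382511-16382567), and AC006064.4 removes 155 bases of the GAPDH locus (chr12:6537986-6538140). The joined exons are shown for these 2 members, as the antisense strand reads, with the second exon in capitals.
AC093484.3: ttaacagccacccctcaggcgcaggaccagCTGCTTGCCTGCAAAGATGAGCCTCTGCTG
AC006064.4: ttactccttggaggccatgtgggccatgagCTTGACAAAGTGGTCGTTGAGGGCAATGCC
Junctions were read for 7 of the 9 members with 95% or more of their exon bases shared, all but those in P4HB and AES. For 4 of the 7, those in UBB, PHLDA1, DDIT4 and CALML3, the whole intron lies in 1 exon of a partner transcript. Read on the antisense strand, each of these introns begins with GT and ends with AG. The table holds counts per gene and none per junction, so how many reads cross these joins was not measured.

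Sequence found elsewhere in the transcriptome limits some of these rows. The longest transcript of each member was divided into overlapping stretches of 50 bases at steps of 10. Transcripts of genes whose loci do not overlap the member held 38.1% of these for AC093484.3 and 21.9% for AC125611.3. The share was 78.8% for AC011603.2, which contains TUBA1B, 23.3% for AL662797.1 in TUBB, 64.3% for NUTM2A-AS1 and 32.1% for AC074117.1, so the reads of these 6 are uncertain. Such stretches were absent in 86 of the 150 members and made up 10% or more in 12. Without those 12, the class with 95% or more shared held 7 members with a median log2 ratio of 0.21 and 5 above 0, and the class with 50% to under 95% held 12 with a median of 0.07 and 8 above 0.

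In the class with 50% to under 95% shared, 5 members had an interval wholly above 0 and 2 wholly below. Besides AC008622.2 and AP002490.1, given above, the first were AL662797.1, AC011603.2 and ZNF337-AS1. AL662797.1 had 342 and 647 reads, a log2 ratio of 0.45 (0.26 to 0.65), and TUBB, a beta-tubulin gene, had 13908 and 19990 and a ratio of 0.06 (0.02 to 0.09). AC011603.2 had 252 and 462 reads, a ratio of 0.41 (0.18 to 0.63), close to TUBA1B, an alpha-tubulin gene, with 4883 and 8486 and a ratio of 0.33 (0.28 to 0.38). ZNF337-AS1, tail to tail with the zinc finger gene ZNF337, had 150 and 257 reads, a ratio of 0.31 (0.01 to 0.61). The 2 lower ones were TTN-AS1 and AC067852.2. TTN-AS1 had 301 and 349 reads, a ratio of -0.25 (-0.48 to -0.03), and AC067852.2 in HSD17B1, a steroid dehydrogenase gene, had 365 and 435, a ratio of -0.21 (-0.42 to -0.01), beside 371 and 593 for HSD17B1.

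The antisense share of the pair's reads needs no scaling between libraries. Its median over the 125 counted pairs was 23.9% in the vector control and 24.2% after overexpression. The 95% intervals of the 2 shares were apart in 24 pairs, with the share higher after overexpression in 15 and lower in 9. The same count was not made for other pairs of genes. Whether 24 of 125 is more than such pairs would give was therefore not tested. Of the 9 members with 95% or more shared bases it was higher in 8.

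**Figure D4:**
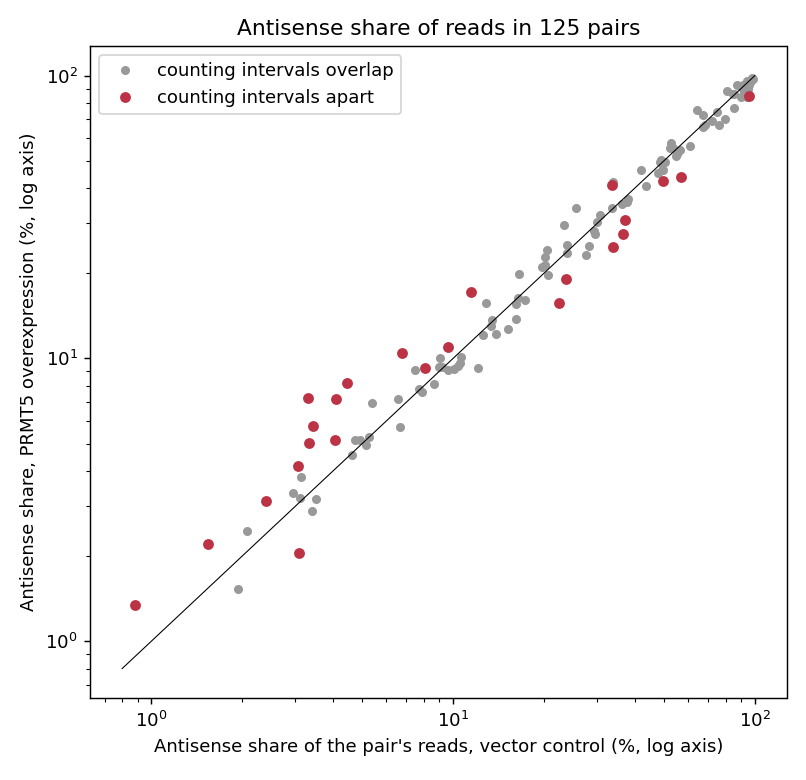
Antisense share of the reads of each pair (%, log axes), vector control on the x axis and PRMT5 overexpression on the y axis, for 125 pairs, with the diagonal of equal shares. Red points are the 24 pairs whose counting intervals are apart; of these, 15 lie above the diagonal and 9 below it.

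In percentage points, the 4 largest gains in share were the following. AC129492.1 in ALOX12B had 106 and 163 reads and a share of 64.2% and then 75.5%. AC016876.1, head to head with MPDU1, a gene of sugar-lipid use in glycosylation, went from 25.6% to 34.2%, as MPDU1 had 297 and 295 reads. AC091729.3, head to head with the zinc finger gene ZFAND2A, went from 34.0% to 42.1% on 123 and 222 reads. AC074117.1, tail to tail with EIF2B4, a subunit gene of the translation factor eIF2B, went from 33.5% to 40.9% on 282 and 499 reads. Of these 4, the intervals of the 2 shares were apart for AC074117.1 only. With all overlapping protein-coding rows in the pair, the shares were 14.9% and 19.9% for AC016876.1 and 13.6% and 17.2% for AC074117.1.

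The largest losses, after HCG18 and THAP9-AS1, were those of AC073508.3, from 94.3% to 83.7% on 116 and 144 reads, and of AC087164.1, from 79.6% to 70.3% on 109 and 111 reads, both with intervals that overlap. The partner of AC087164.1 is MYO15A, an inner ear myosin gene with 28 and 47 reads. These 2 members also share exon bases with well-read genes, AC073508.3 with SMARCE1, a chromatin remodelling gene with 964 and 1349 reads, and AC087164.1 with ALKBH5, an RNA demethylase gene with 2946 and 4001. With all overlapping protein-coding rows in the pair, their shares were 10.7% and 9.47% for AC073508.3 and 3.54% and 2.67% for AC087164.1. For THAP9-AS1 that share was 25.6% and 23.9%, since it also overlaps SEC31A, a vesicle coat gene with 1891 and 2426 reads and a log2 ratio of -0.11. SEC31A lies on the same strand as THAP9-AS1 and shares 482 exon bases with it. Reads from those bases could not be told apart even by strand, which also limits the ratio of THAP9-AS1. Besides HCG18 and THAP9-AS1, 7 pairs had a lower share with intervals apart. The share of AC067852.2 was 49.6% and 42.3%, that of AC090673.1 is given above, and AC027644.3 went from 33.9% to 24.7%. KCTD21-AS1, tail to tail with KCTD21, a gene of a ubiquitin ligase adaptor, had 164 and 208 reads and went from 36.6% to 27.4%. NNT-AS1, head to head with the mitochondrial transhydrogenase gene NNT, had 431 and 469 reads and a share of 23.7% and then 19.1%. AC004943.2, tail to tail with the homeobox gene ZFHX3, had 397 and 434 reads and went from 37.2% to 30.8%. AL359220.1 in PRKCH, a protein kinase C gene, had 173 and 189 reads and went from 22.5% to 15.7%.

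Antisense RNAs that are known by name in textbooks and reviews formed a list of 64 entries, of which 61 were in the table and 25 had 100 or more reads in both libraries, 20 of them members here. The 25 had a median log2 ratio of -0.03, with 10 above 0 and 15 below. MAPKAPK5-AS1 was 1.5-fold higher, with 150 and 351 reads and a ratio of 0.76 (0.48 to 1.04), and is typed as an intergenic RNA in the table. Among the members of the list, DLX6-AS1, which spans the homeobox gene DLX6, had 564 and 729 reads, a ratio of -0.10 (-0.26 to 0.06), and DLX6 had 587 and 718. ZEB1-AS1 had 169 and 234 reads, a ratio of 0.00, beside 9 and 18 for ZEB1, a repressor of epithelial genes. Both pairs had antisense ratios within counting error of 0.

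Genes that form, degrade, bind or edit RNA were described by 4 lists, which are not confined to genes that act on antisense RNAs. The medians of 3 lists were close to that of all rows. The nuclear exosome and its adaptors, which degrade many antisense RNAs, had 26 genes with 100 or more reads in both libraries, with a median log2 ratio of 0.0062 and 1 at 1.5-fold. That gene was TENT4B, a non-canonical poly(A) polymerase that tags exosome substrates, with 221 and 526 reads and a ratio of 0.78 (0.55 to 1.02). The 19 genes that bind or edit duplex RNA had a median of 0.10, near the upper quartile of 0.0979 over protein-coding rows with 100 or more reads in both libraries. Of these 19, 13 were above 0, beside 48.0% of all rows, and 1 was 1.5-fold lower: TARBP2, a Dicer cofactor gene, with 362 and 310 reads and a ratio of -0.69 (-0.91 to -0.47). The highest ratios of the 19 were those of DDX58 (0.46), OAS3 (0.28) and OAS1 (0.24), and 6 genes were below 0. Of 17 genes of nonsense-mediated decay, with a median of -0.03, UPF3A was 1.5-fold lower, with 549 and 442 reads and a ratio of -0.78 (-0.96 to -0.60). Of 36 genes of 3′ end formation, with a median of 0.0052, CPSF4, a cleavage factor subunit gene, was 1.5-fold lower, with 1914 and 1462 reads and a ratio of -0.86 (-0.96 to -0.76). In each list 1 gene passed 1.5-fold, beside 1.69% of all rows higher and 1.92% lower.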

How the data were processed

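The authors' deposited table gave raw counts and FPKM per gene for 2 libraries. CASAVA 1.8, HISAT2 2.1.0, StringTie 1.3.4b, edgeR and GRCh38/hg38 are named in the submitters' processing notes, without roles. Nothing in the labels says whether strand was kept, so this is not given in the sources used. The deposited FPKM values implied 1 fixed length per gene, 1.55 times the merged exon length at the median, so levels per length were recomputed from counts and GENCODE release 29 (GRCh38) exons, which also gave strand. Of the 150 members, 147 had the same position there.

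Counts were scaled by TMM (edgeR 4.0.16, R 4.3.3), with factors 1.01 and 0.990 computed on rows that reached 10 reads in either library, and a prior count of 1. Intervals are 95% Clopper-Pearson. Reads are not independent molecules. The calculation was tested on simulated data. With 1 library per group no test was run. Intervals and tables used scipy 1.17.1, numpy 2.4.6 and pandas 2.3.3 in Python 3.11.15, and plots matplotlib 3.10.9.

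Members and lists were chosen with earlier results of these data known. Named were members past 1.5-fold, the 8 with the most reads, pairs whose partner passed 1.5-fold, the 4 largest share changes each way, rows next to the read minimum, list genes past 1.5-fold, and, after values were seen, the members of the upper and lower ends, of the shared-exon classes and of the pairs with a lower share, with ZNF778, SLC1A5, DLX6-AS1 and ZEB1-AS1. Some items are not reported here. Alternatives were other prior counts, DESeq2 1.42.0 size factors, total counts, FPKM, other read minimums and partner rules, and summed symbols. No columns of per-sample values were left unused.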

Additional observations from a re-analysis of the deposited data

How the results depend on the processing

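The median log2 ratio of the members stayed between -0.10 and 0.03 under every alternative run, with the lowest among the 34 whose exons meet no exon of a counted protein-coding gene. Of 1644 recomputed log2 ratios of all members and all counted main partners, 1633 stayed within their counting interval and 0 of those past 2-fold changed sign. All 900 antisense values stayed within. Between 0 and 11 members changed sign around 0, most with total counts or FPKM, which shifted the median of all rows by -0.0283 and -0.0249. In the class with under 50% of exon bases shared, 32 members were above 0 with either of these and 45 with median-of-ratios factors, against 41; the class with 95% or more kept 7. At 1.5-fold, 2 members were lower, and 7 partners were higher and 7 lower. With 50 or more reads in both libraries, 308 antisense rows were kept and 1 was 2-fold higher, AC020978.5, with 67 and 362 reads. Of the partners, 1 was 2-fold lower with median-of-ratios factors, and with FPKM 0 were higher and 1 lower; for low genes the added 1 shrinks the ratio. Median shares were 20.1% and 19.9% with all overlapping protein-coding rows in the pair. Of all rows, 2.9% were 2-fold higher and 1.94% lower among those reaching 10 reads in either library, and 3.69% and 5.04% without a minimum. Taking the partner with the most reads switched 18 pairs. No paired analysis was possible because neither group has more than 1 library. The exon-share classes and the set without repeated sequence were added after the data were seen. With a median interval 0.58 wide on the log2 scale, small differences of single members were not detectable at this depth.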
